A study of Mus musculus with 8 samples.

Results

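The genes of the standard 26S proteasome were compared between primary mammary tumours with normal and with reduced miR-21 activity. Members were chosen by symbol: every gene of the count table whose mouse symbol starts with Psma, Psmb, Psmc or Psmd and a number, without the immunoproteasome genes Psmb8, Psmb9 and Psmb10 and without pseudogenes. This gave 37 of the 27179 genes in the table. One of them, Psmc3ip, shares the letters but encodes a cofactor of recombination and not a proteasome subunit, so it is described apart and counts are given for the other 36. Of these, 33 encode subunits of the 20S core or the 19S particle, and 3 (Psmd5, Psmd9 and Psmd10) encode chaperones that help to build the base of the 19S particle and leave it afterwards.

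RNA from 8 whole tumours was sequenced, with 4T1.13-VC as the control (n = 4) and 4T1.13-miR-21-KD as the knockdown (n = 4). Each tumour grew from 100000 cells placed in the mammary fat pad of a young adult female BALB/c mouse. 4T1.13 is a metastatic mouse mammary carcinoma line. The miR-21-KD cells carry a lentiviral miArrest vector whose H1 promoter drives an RNA that binds the mature miRNA and takes it out of use, and the VC cells carry a scrambled sequence in the vector. Both lines were pools of single-cell clones, so a difference between the pools other than miR-21 activity cannot be told apart from the knockdown. The labels place the recovery of all tumours at day 14, when the miR-21-KD tumours began to regress, and the methods of the study name an earlier day. The host mice had intact immunity and only the injected cells carried the vectors, while whole tumours also hold host cells, so fewer cells of a type and less RNA per cell cannot be told apart.

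Reads counted on genes numbered 12134849 to 13592695 in a VC tumour and 12550898 to 12783800 in a miR-21-KD tumour. The precursor gene Mir21a had 0 counts in all 8 tumours, and since the vector captures the mature miRNA without removing it, the table offers no check of the knockdown at its target. Levels are given as CPM, a gene's share of the counts of tested genes in its library, in parts per 1000000, with the library size scaled by TMM. Each difference was tested with the quasi-likelihood test of edgeR over all 14382 genes with enough counts, with Benjamini-Hochberg adjustment over all of them and a threshold of 0.05. A log2 fold change below 0 is lower in miR-21-KD tumours, and p-values measure the spread between these tumours only. The log2 fold change of all tested genes had a median of -0.01. At the threshold 19.5% of them were lower in the miR-21-KD group and 19.6% higher, and the groups did not overlap for 35.2%. A check for a library deposited more than once found none within a group (chi-square per degree of freedom between 12.6 and 70.7).

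The proteasome degrades proteins tagged with ubiquitin. The 20S core is a barrel of stacked rings, in which the outer alpha rings (Psma genes) form the gate and the inner beta rings (Psmb genes) hold the proteolytic sites. The 19S particle caps the barrel: its base has a ring of ATPases (Psmc genes) that unfold the substrate, and its lid (most Psmd genes) removes the ubiquitin chain. Dividing tumour cells depend on this machine to clear cyclins and misfolded proteins, and immune cells and cells exposed to interferon replace the catalytic beta subunits with those of the immunoproteasome.

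The mature mmu-miR-21a-5p is encoded on the minus strand at chr11:86584120-86584141 (RefSeq, mm10) and is shown because it is the RNA that the vector captures. Capitals mark the seed, bases 2 to 8, which pairs with target transcripts.
mmu-miR-21a-5p: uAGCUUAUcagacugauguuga
A match of 7 bases to this seed (ATAAGCT or TAAGCTA) in an annotated 3′ untranslated region was found for 1 of the 36 proteasome genes, the testis-restricted Psma8, against 10.3% of the 20745 genes scanned. The other 35 held none of these letters in the transcripts searched. A longer region has more places for a match. The regions searched ran from 58 bases for Psmc5, with 59 for Psmb3 and 68 for Psmc3, to 3321 bases for Psmb11. The 2 shares were not adjusted for length.

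Promoters from 250 bases before to 50 bases after the start were at hand for 29 of the 36 genes in the RefSeq table of mm10. Psma8, Psmb1, Psmb2, Psmb7, Psmc3, Psmd3 and Psmd7 were not scanned. The core of the antioxidant response element, TGACNNNGC, to which the proteasome activators of the NFE2 family bind, was present on either strand in 5 of the 29 (17.2%), against 14.0% of 27025 genes with a promoter. All 5 windows are shown, with the motif in capitals, because this element is the one bound by the known activators of proteasome genes.
Psmb5 (chr14:54618023-54618052, minus strand): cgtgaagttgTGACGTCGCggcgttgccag
Psmb6 (chr11:70525338-70525367, plus strand): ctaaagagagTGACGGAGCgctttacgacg
Psmd9 (chr5:123228149-123228178, plus strand): atctagccggTGACCCCGCccacttccaag
Psmc6 (chr14:45329587-45329616, plus strand): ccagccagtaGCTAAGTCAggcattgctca
Psmd12 (chr11:107479278-107479307, plus strand): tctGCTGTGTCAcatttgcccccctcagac
Of these 5 genes Psmd12 was lower in miR-21-KD tumours at the threshold, and in Psmd9 the motif shares bases with a GC box. The CCAAT box, bound by NF-Y, was present in 12 of the 29 (41.4%), against 41.1% of all genes, and the GC box GGGCGG in 18 (62.1%), against 38.2%. Of the 11 tested genes with a CCAAT box 4 were lower at the threshold, where 12 of the 28 scanned and tested genes and 19.5% of all tested genes were. One window is shown for each of the 4, and for comparison for Psmd14 and Psmd4, which did not pass, with the box in capitals (ATTGG where it lies on the other strand).
Psmc2 (chr5:21785235-21785264, plus strand): cacggcctcgcgCCAATgcgcgcggccgcc
Psma6 (chr12:55384181-55384210, plus strand): gaccactaggtgCCAATggaattcctgagg
Psma3 (chr12:70974641-70974670, plus strand): tggagagcgcagCCAATgggcgagcctgtt
Psmd10 (chrX:140956718-140956747, minus strand): tctagtactttgATTGGtcgccggaacagg
Psmd14 (chr2:61711686-61711715, plus strand): ccccggcggactCCAATtggcggtagaaga
Psmd4 (chr3:95042577-95042606, minus strand): atgagcaccaggCCAATcggaggtgctgtt
A match is a description of the letters in the window and was not tested for binding.

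Of the 36 proteasome genes 35 had enough counts to be tested, and 15 of these (42.9%) were lower in miR-21-KD tumours at the threshold, where 19.5% of all tested genes were. None was higher, where 19.6% of all tested genes were: 0 members passed in that direction at an unadjusted p under 0.05, and 0 with DESeq2 or limma-voom. The log2 fold change was below 0 for 32 of the 35 (29 to 33 over the alternatives, as Psmb5, Psmb6, Psmc4 and Psmd13 changed sign in some), with a median of -0.27, and the 15 ranged from -0.87 for Psmb7 to -0.24 for Psmd6. In 13 of the 35 every miR-21-KD tumour lay below every VC tumour, while the groups did not overlap in either direction for 35.2% of all tested genes. The 3 genes above 0 were Psma8, Psmd8 and Psmd13, none past the threshold. No gene fell by more than 1 on the log2 scale, and 7 of the 20 that did not pass had an adjusted p under 0.1.

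The tumours of the miR-21-KD group were not alike. Tumour 1 had the lowest level of its group in 31 of the 35 genes and the lowest of all 8 tumours in 28, and tumour 2 had the highest level of its group in 31. The summed level of the 36 genes was 4848, 5235, 5309.8 and 5223 CPM in VC tumours 1 to 4 and 3672.5, 4772, 4232 and 4203.5 CPM in miR-21-KD tumours 1 to 4. All 4 miR-21-KD sums were below all 4 VC sums, with tumour 2 closest to them, and the ratio of the group means was 0.819. Without miR-21-KD tumour 2, 23 of 35 genes were lower where 24.3% of all genes were, and 7 of 35 were without VC tumour 3, where 10.2% of all genes were. The count was 8 without VC tumour 2 (10.8% of all genes), 9 without miR-21-KD tumour 1 (13.7%) and 9 without miR-21-KD tumour 4 (11.1%). Psma5, Psma6, Psmb2, Psmb7, Psmc2, Psmd5 and Psmd12 were lower at the threshold in all 15 alternatives tried.

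**Figure D1:**
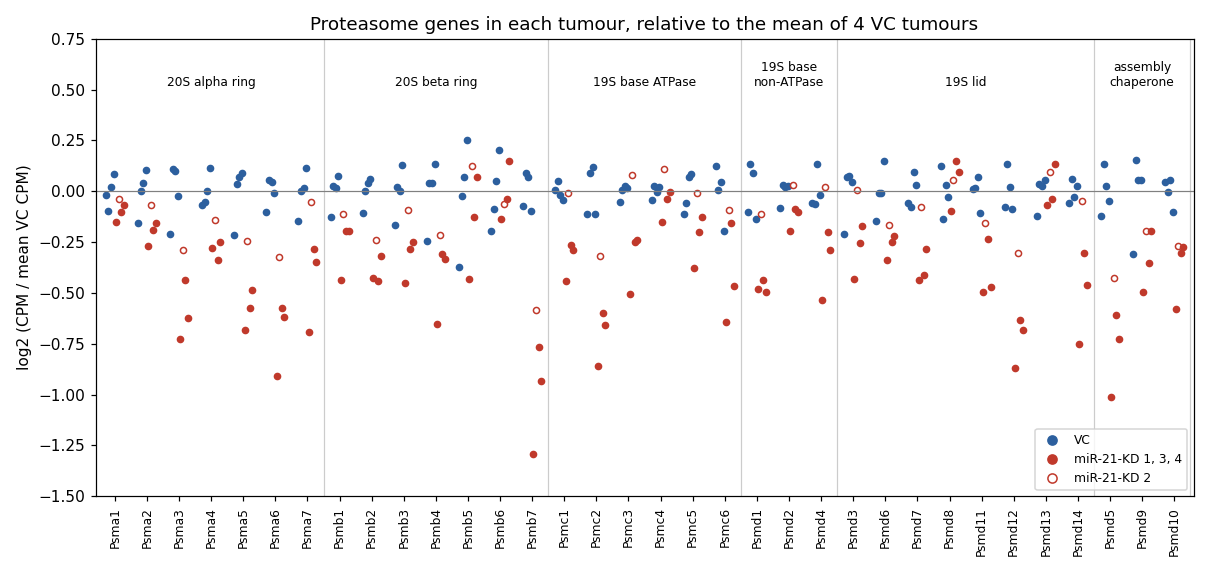
Level of 34 proteasome genes (x axis, by role) in each tumour as log2 of its CPM over the mean of the 4 VC tumours (y axis). Blue points are VC tumours, filled red points miR-21-KD tumours 1, 3 and 4, and open red circles miR-21-KD tumour 2; Psma8 and Psmb11, at or near 0 counts, are left out. Most red points lie below the line at 0, lowest for Psmb7, and the open circles tend to lie above the other red points.

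After the group means were removed, the levels of the genes moved together over the 8 tumours. The correlation of a gene with the mean of the other members had a median of 0.861 and was over 0.8 for 22 of the 35. It was 0.39 for Psmb6, 0.16 for Psmd8 and -0.27 for Psma8. The 8 points share their libraries and scaling, so these values are a description. The same correlation was not computed for other genes, so it is not known to be particular to the proteasome genes.

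Among the alpha ring genes, 4 of 8 were lower at the threshold, Psma6, Psma5, Psma3 and Psma4, and the median log2 fold change of the ring was -0.29. Psma6 (chr12:55384222-55418454, plus strand) had 259, 289, 286 and 276 CPM in VC tumours 1 to 4 and 148, 221, 186 and 181 CPM in miR-21-KD tumours 1 to 4. The groups did not overlap, and the log2 fold change was -0.59 ± 0.12 (SE, adjusted p = 0.0099). Psma5 (chr3:108256926-108279974, plus strand) had 59.1, 70.2, 72.1 and 72.9 CPM in the VC tumours and 42.7, 57.9, 46.1 and 49 CPM in the miR-21-KD tumours. It too was below every VC tumour in every miR-21-KD tumour (log2 fold change -0.49 ± 0.11, adjusted p = 0.0137). Psma3 (chr12:70974621-70996347, plus strand) had 28.2, 35.3, 35.1 and 32.2 CPM in the VC tumours and 19.8, 26.8, 24.2 and 21.2 CPM in the miR-21-KD tumours. Its groups were apart as well (log2 fold change -0.51 ± 0.13, adjusted p = 0.0163), but the call was lost without VC tumour 3 (adjusted p = 0.0525). Psma4 (chr9:54950790-54958030, plus strand) had 127, 129, 133 and 144 CPM in the VC tumours and 109.7, 121, 105 and 112 CPM in the miR-21-KD tumours. The difference was smaller though without overlap (log2 fold change -0.25 ± 0.08, adjusted p = 0.0334), and it did not pass without VC tumour 2, 3 or 4 or miR-21-KD tumour 1, 3 or 4 (adjusted p between 0.0635 and 0.0915), nor with upper-quartile scaling or a filter of 10 counts in every tumour (adjusted p between 0.0604 and 0.0647).

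The other 4 alpha genes did not pass the threshold. Psma7 had 237 ± 17.4 CPM in VC tumours, against 189 ± 33.8 CPM in the other group (mean ± SD, n = 4 here and below; log2 fold change -0.33 ± 0.13, adjusted p = 0.0805) and passed with the replicate number as a block (adjusted p = 0.0395) or without miR-21-KD tumour 2 (adjusted p = 0.0196). Psma2 had 139 ± 10.5 against 124 ± 7.15 CPM (log2 fold change -0.17 ± 0.08, adjusted p = 0.134), and Psma1 had 152 ± 7.86 against 143 ± 4.89 CPM (log2 fold change -0.09 ± 0.07, adjusted p = 0.354). Psma8, the germ cell relative of Psma7, was near the floor with 9 to 19 counts in a tumour, 0.967 ± 0.243 against 1.16 ± 0.283 CPM (log2 fold change 0.26 ± 0.30, adjusted p = 0.506).

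The beta ring held the largest fall of all 35 genes, Psmb7, and also Psmb6, whose log2 fold change was close to 0. Its 3 catalytic genes are Psmb6 (caspase-like activity), Psmb7 (trypsin-like activity) and Psmb5 (chymotrypsin-like activity). Psmb7 (chr2:38588036-38644087, minus strand) had 246, 275, 271 and 241 CPM in VC tumours 1 to 4 and 106, 172, 152 and 135 CPM in miR-21-KD tumours 1 to 4. Every miR-21-KD tumour was well below every VC tumour, with group means of 258 ± 17.2 against 141 ± 28.1 CPM and a log2 fold change of -0.87 ± 0.14 (adjusted p = 0.00632). Psmb6 (chr11:70525367-70527858, plus strand) had 124, 134, 147 and 163 CPM in the VC tumours and 129, 136, 138 and 157 CPM in the miR-21-KD tumours. Here the groups covered almost the same range (142 ± 17.1 against 140.4 ± 11.9 CPM, log2 fold change -0.02 ± 0.11, adjusted p = 0.909). Psmb5 (chr14:54614119-54618022, minus strand) had 17.8, 22.7, 24.3 and 27.5 CPM in the VC tumours and 17.1, 25.2, 21.2 and 24.3 CPM in the miR-21-KD tumours. These also overlapped (23.1 ± 4.04 against 21.9 ± 3.62 CPM, log2 fold change -0.07 ± 0.17, adjusted p = 0.745).

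Within each library the counts of Psmb7 were 1.98, 2.05, 1.84 and 1.48 times those of Psmb6 in VC tumours 1 to 4 and 0.816, 1.26, 1.1 and 0.86 times in miR-21-KD tumours 1 to 4. The ratio of Psmb7 to Psmb5 was 13.8, 12.1, 11.2 and 8.75 in the VC tumours and 6.16, 6.84, 7.17 and 5.57 in the miR-21-KD tumours. Both ratios were lower in every miR-21-KD tumour than in every VC tumour. The ratio of Psmb5 to Psmb6 was between 0.144 and 0.17 in VC and between 0.132 and 0.185 in miR-21-KD tumours, so the groups overlapped. These ratios were formed after the values of the 3 genes were seen and are given with no test.

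Among the beta genes without a proteolytic site, Psmb2 and Psmb4 were lower at the threshold. Psmb2 (chr4:126677630-126709714, plus strand) had 140.5, 152, 156 and 158 CPM in the VC tumours and 113, 128, 111 and 122 CPM in the miR-21-KD tumours. The groups were apart (log2 fold change -0.35 ± 0.08, adjusted p = 0.0126). Psmb4 had 229 ± 24.9 against 177 ± 22.3 CPM with overlapping groups (log2 fold change -0.37 ± 0.12, adjusted p = 0.0402). Its call was lost without VC tumour 2, 3 or 4 or miR-21-KD tumour 1, 3 or 4 (adjusted p between 0.0727 and 0.0956) and with upper-quartile scaling or the stricter filter (adjusted p between 0.0524 and 0.0559). Psmb3 had 68.7 ± 5.69 against 57.1 ± 5.82 CPM (log2 fold change -0.27 ± 0.10, adjusted p = 0.0609) and Psmb1 248 ± 14.6 against 211 ± 19.7 CPM (log2 fold change -0.23 ± 0.09, adjusted p = 0.0799). Both passed with the replicate block (adjusted p = 0.032 for Psmb3 and 0.0463 for Psmb1) and with DESeq2 (adjusted p = 0.0495 and 0.0496). Both also passed without miR-21-KD tumour 2, and Psmb3 without VC tumour 1. Psmb11, the thymus-specific catalytic subunit, had 0 counts in all 8 tumours and was not tested, which allows up to 0.221 to 0.245 CPM in a tumour, for counting error only.

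**Figure D2:**
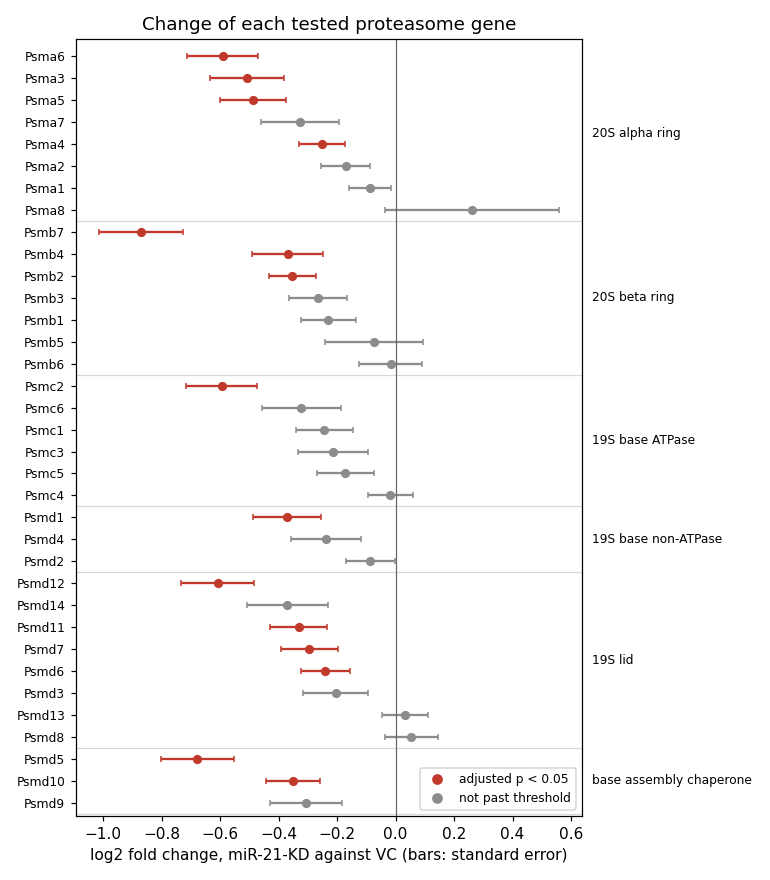
Log2 fold change of miR-21-KD against VC tumours (x axis) for the 35 tested genes, ordered within each role (y axis). Bars are 1 standard error, and red marks an adjusted p under 0.05 in the quasi-likelihood test of edgeR. Red points occur in every role, from Psmb7 at -0.87 to Psmd6 at -0.24, and none lies to the right of 0.

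In the base of the 19S particle 1 of the 6 ATPase genes was lower at the threshold. Psmc2 (chr5:21785283-21803787, plus strand) had 126, 145, 148 and 126 CPM in VC tumours 1 to 4 and 75.3, 109.6, 90.2 and 86.5 CPM in miR-21-KD tumours 1 to 4. Its groups did not overlap (log2 fold change -0.59 ± 0.12, adjusted p = 0.00976). The other 5 were all below 0 without passing. Psmc6 had 121 ± 11.1 against 96.5 ± 17 CPM (log2 fold change -0.32 ± 0.13, adjusted p = 0.0843), Psmc1 had 153 ± 4.01 against 129 ± 16.4 CPM (log2 fold change -0.24 ± 0.10, adjusted p = 0.0758), and Psmc3 had 207 ± 5.08 against 178 ± 30.1 CPM (log2 fold change -0.21 ± 0.12, adjusted p = 0.176). These 3 passed without miR-21-KD tumour 2 (adjusted p = 0.035, 0.00973 and 0.0187). Psmc5 had 146 ± 9.68 against 129 ± 13.7 CPM (log2 fold change -0.17 ± 0.10, adjusted p = 0.182). Psmc4 had nearly equal means, 123 ± 2.67 against 121 ± 8.9 CPM (log2 fold change -0.02 ± 0.08, adjusted p = 0.864).

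The base also has the scaffold proteins Psmd1 and Psmd2 and the ubiquitin receptor Psmd4. Psmd1 was lower at the threshold although its groups overlapped through miR-21-KD tumour 2, with 286 ± 26.7 against 221 ± 29.5 CPM (log2 fold change -0.37 ± 0.12, adjusted p = 0.0344). The call was lost without VC tumour 2 or 3 or miR-21-KD tumour 1, 3 or 4 (adjusted p between 0.0821 and 0.0944). Psmd4 (chr3:95032694-95042614, minus strand) had 172, 172, 197 and 177 CPM in the VC tumours and 124, 182, 156 and 147 CPM in the miR-21-KD tumours. Tumours 1, 3 and 4 of the miR-21-KD group were the lowest of the 8 and tumour 2 lay within the VC range (log2 fold change -0.24 ± 0.12, adjusted p = 0.14), and the gene passed without miR-21-KD tumour 2 (adjusted p = 0.0282). Psmd2 had 318 ± 11.8 against 299.5 ± 19.3 CPM (log2 fold change -0.09 ± 0.08, adjusted p = 0.429).

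In the lid 4 of 8 genes were lower at the threshold, Psmd12, Psmd11, Psmd7 and Psmd6, all without overlap between the groups. Psmd12, a structural subunit (chr11:107479484-107504362, plus strand), had 145, 168, 155 and 144 CPM in VC tumours 1 to 4 and 83.7, 124, 98.7 and 95.3 CPM in miR-21-KD tumours 1 to 4. The fall was the largest of the lid (log2 fold change -0.61 ± 0.12, adjusted p = 0.00946). Psmd11 (chr11:80428615-80473248, plus strand) had 102, 103, 106 and 94.1 CPM in the VC tumours and 71.9, 90.8, 86.1 and 73 CPM in the miR-21-KD tumours. It was below the VC range in every miR-21-KD tumour (log2 fold change -0.33 ± 0.10, adjusted p = 0.0272), and the call was lost without VC tumour 1, 2 or 3 or miR-21-KD tumour 1 or 4 (adjusted p between 0.0559 and 0.0763). Psmd7, the inactive partner of the deubiquitinase Psmd14, had 151 ± 8.47 against 123 ± 14.3 CPM (log2 fold change -0.29 ± 0.10, adjusted p = 0.0418), and Psmd6 had 85 ± 7.19 against 71.9 ± 3.59 CPM (log2 fold change -0.24 ± 0.08, adjusted p = 0.048). Psmd7 did not pass with the replicate block (adjusted p = 0.052), with upper-quartile scaling or the stricter filter (adjusted p between 0.059 and 0.0637), or without VC tumour 1, 2, 3 or 4 or miR-21-KD tumour 1, 3 or 4 (adjusted p between 0.0602 and 0.111). Psmd6 did not pass with 4 other settings of scaling, filter or tool (adjusted p between 0.0519 and 0.0914) or without VC tumour 2, 3 or 4 or miR-21-KD tumour 1, 3 or 4 (adjusted p between 0.0906 and 0.109).

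Psmd14, the metalloprotease that cuts ubiquitin from the substrate (chr2:61711694-61800376, plus strand), had 143, 155, 146 and 152 CPM in VC tumours 1 to 4 and 88.5, 144, 121 and 108 CPM in miR-21-KD tumours 1 to 4. Tumour 2 of the miR-21-KD group lay within the VC range and the other 3 below it, and the gene did not pass (log2 fold change -0.37 ± 0.14, adjusted p = 0.0592). It passed with the replicate block (adjusted p = 0.0319), with DESeq2 or limma-voom (adjusted p between 0.0439 and 0.0485) and without miR-21-KD tumour 2 (adjusted p = 0.00917). Psmd3 had 165 ± 14.8 against 143 ± 17.9 CPM (log2 fold change -0.20 ± 0.11, adjusted p = 0.169). Psmd8 had 222 ± 16.5 against 230.4 ± 16.6 CPM (log2 fold change 0.05 ± 0.09, adjusted p = 0.658) and Psmd13 had 112 ± 6.15 against 114 ± 7.72 CPM (log2 fold change 0.03 ± 0.08, adjusted p = 0.768), the only lid genes above 0.

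Of the 3 base assembly chaperones, Psmd5 and Psmd10 were lower at the threshold. Psmd5, also called S5b, binds the ATPase Psmc2 during assembly. Psmd5 (chr2:34849734-34874968, minus strand) had 89.5, 107, 99.1 and 94.3 CPM in VC tumours 1 to 4 and 48.3, 72.5, 63.8 and 58.8 CPM in miR-21-KD tumours 1 to 4. Its fall was second to that of Psmb7 among the 35 genes, with no overlap (log2 fold change -0.68 ± 0.12, adjusted p = 0.00742). Psmd10, or gankyrin (chrX:140948429-140956728, minus strand), had 50.2, 48.7, 50.7 and 45.4 CPM in the VC tumours and 32.6, 40.5, 39.5 and 40.2 CPM in the miR-21-KD tumours. The groups were apart (log2 fold change -0.35 ± 0.09, adjusted p = 0.0202), and the call was lost without VC tumour 2 or 3 (adjusted p between 0.0527 and 0.0613). Psmd9 had 39.8 ± 5.3 against 32.2 ± 3.15 CPM (log2 fold change -0.30 ± 0.12, adjusted p = 0.0766), with VC tumour 1 inside the range of the miR-21-KD tumours, and passed with the replicate block (adjusted p = 0.0286) or without VC tumour 1 (adjusted p = 0.0271). The summed level of the 3 chaperones was 0.706 times that of the VC group, against 0.783 for the 20S genes and 0.854 for the 19S genes, a difference that was not tested.

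Psmc3ip, the recombination cofactor that shares only the name pattern (chr11:101091823-101095436, minus strand), had 8.92, 11.3, 12.4 and 11.4 CPM in the VC tumours and 3.56, 8.18, 4.79 and 4.85 CPM in the miR-21-KD tumours. It was lower in every miR-21-KD tumour than in any VC tumour (log2 fold change -1.04 ± 0.26, adjusted p = 0.0158), and with it 16 of 36 tested genes were lower (44.4%), with a median log2 fold change of -0.28.

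Levels were divided by the length of the longest transcript annotated as principal. They spanned a wide range in VC tumours, from 11.5 CPM per kb for Psma3 to 266 for Psma6, apart from Psma8 and Psmb11. Psma3 was given a length of 2846 bases. Which transcript the tumours express was not examined, and a shorter one would raise the value per kb. In the beta ring, the mean levels per kb in VC and miR-21-KD tumours were 223 and 122 for Psmb7, 178 and 176 for Psmb6 and 25.7 and 24.4 for Psmb5. Psmb7 was thus above Psmb6 per length in VC tumours and below it in miR-21-KD tumours. How reads that fit more than 1 place were counted is not given in the sources used here. The level of a gene with near-identical copies is therefore uncertain, and Psma8 may share reads with Psma7.

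None of the 3 immunoproteasome counterparts passed the threshold with edgeR, and 0 passed with DESeq2 or limma-voom. With edgeR 0 of the 3 had an unadjusted p under 0.05, where 7298 of all 14382 tested genes had. Psmb8, which replaces Psmb5, had 226, 261, 339 and 439 CPM in VC tumours 1 to 4 and 257, 366, 274 and 307 CPM in miR-21-KD tumours 1 to 4 (log2 fold change -0.07 ± 0.21, adjusted p = 0.81). Psmb9, which replaces Psmb6, had 62.6, 64.1, 106 and 152 CPM in the VC tumours and 114, 132, 102 and 131 CPM in the miR-21-KD tumours (log2 fold change 0.32 ± 0.28, adjusted p = 0.382), and passed as higher without VC tumour 4 (adjusted p = 0.0441). Psmb10, which replaces Psmb7, had 83.8, 111, 157 and 179 CPM in the VC tumours and 100.1, 137, 100.1 and 123 CPM in the miR-21-KD tumours (log2 fold change -0.20 ± 0.23, adjusted p = 0.499). All 3 overlapped between the groups, and their VC tumours spread widely, with the highest level in VC tumour 4.

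The ratio of each counterpart to its standard subunit was compared within libraries by an exact two-sided permutation test over the tumours, in which the smallest p is 0.0286. The ratio of Psmb10 to Psmb7 was 0.341, 0.405, 0.578 and 0.742 in VC and 0.948, 0.796, 0.659 and 0.91 in miR-21-KD tumours 1 to 4. Only VC tumour 4 and miR-21-KD tumour 3 crossed, and the mean log2 ratio was higher by 0.73 in the miR-21-KD group (exact p = 0.0571, 0.171 after adjustment over the 3 ratios). For Psmb9 to Psmb6 the difference in log2 ratio was 0.42 (exact permutation p = 0.171, adjusted 0.257), and for Psmb8 to Psmb5 it was 0.04 (exact permutation p = 0.714, adjusted 0.714). None of the 3 ratios passed the threshold, and since adjustment over the 3 lifts a single fully separated ratio to 0.0857, no ratio could have passed alone.

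**Figure D3:**
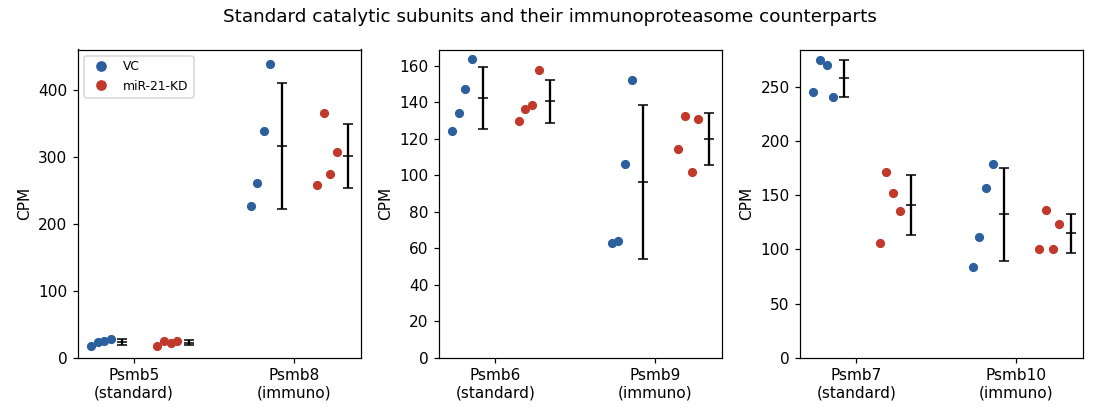
CPM (y axis, linear, from 0) of each standard catalytic gene and its immunoproteasome counterpart in the 4 VC (blue) and 4 miR-21-KD (red) tumours, with the group mean ± SD in black. Psmb7 is the pair member whose groups are apart, with means of 258 and 141 CPM, while the groups of Psmb5, Psmb6, Psmb8, Psmb9 and Psmb10 overlap.

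Of 41 other genes that assemble, activate, supply or control the proteasome, 40 were tested. Of these 7 (17.5%) were lower and 4 were higher at the threshold, where 19.5% and 19.6% of all tested genes were, with a median log2 fold change of -0.12. With 1 tumour left out, the count of lower ones was 3 without VC tumour 3, where 10.2% of all tested genes were lower. It was 11 without miR-21-KD tumour 2 (24.3% of all genes) and 4 without VC tumour 2 (10.8%). It was also 4 without miR-21-KD tumour 1, 3 or 4 (13.7%, 12.2% and 11.1%). The count of higher ones was 2 without VC tumour 2 or 3 or miR-21-KD tumour 1 or 3. The gene for the core assembly chaperone Pomp had 170.4 ± 13.3 against 143 ± 13.6 CPM; its groups did not overlap but it did not pass (log2 fold change -0.25 ± 0.10, adjusted p = 0.0645), and passed with DESeq2 (adjusted p = 0.041) or without miR-21-KD tumour 2 (adjusted p = 0.0373). None of the 5 core assembly chaperone genes passed, with 0 of 5 higher and 1 of 5 lower at an unadjusted p under 0.05. Of all 14382 tested genes, 3642 were higher and 3656 lower at that cut.

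Both deubiquitinases that dock on the 19S particle were lower, Usp14 with 119 ± 18 against 81.5 ± 10.7 CPM (log2 fold change -0.55 ± 0.14, adjusted p = 0.0163) and Uchl5 with 66.6 ± 8.4 against 48.3 ± 9.59 CPM (log2 fold change -0.46 ± 0.15, adjusted p = 0.0421). The call of Usp14 was lost without VC tumour 3 (adjusted p = 0.0512) and that of Uchl5 without VC tumour 1, 2 or 3 or miR-21-KD tumour 1, 3 or 4 (adjusted p between 0.0812 and 0.11) or with the stricter filter (adjusted p = 0.0524). Of the activators that open the core, Psme4 (PA200) was higher, 104 ± 5.89 against 142 ± 9.55 CPM (log2 fold change 0.44 ± 0.08, adjusted p = 0.00725). Psme1, a chain of the interferon-induced activator PA28, was lower, 293 ± 62.5 against 208 ± 24.6 CPM (log2 fold change -0.49 ± 0.16, adjusted p = 0.0387), but not without VC tumour 2, 3 or 4 or miR-21-KD tumour 1, 3 or 4 (adjusted p between 0.0569 and 0.0974) or with upper-quartile scaling or the stricter filter (adjusted p between 0.051 and 0.0515). Its partner chain Psme2 had 83.1 ± 18.6 against 68.5 ± 11 CPM (log2 fold change -0.28 ± 0.17, adjusted p = 0.222).

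The E1 enzyme Uba1, which activates ubiquitin for conjugation, was lower (563 ± 24.6 against 432 ± 28.4 CPM, log2 fold change -0.38 ± 0.09, adjusted p = 0.014). Of the ubiquilin shuttles, which deliver ubiquitin-tagged proteins to the proteasome, Ubqln4 was lower (103 ± 10.7 against 70.8 ± 10.9 CPM, log2 fold change -0.54 ± 0.12, adjusted p = 0.0129) and Ubqln2 was higher (18.3 ± 3.56 against 41.6 ± 10.5 CPM, log2 fold change 1.19 ± 0.21, adjusted p = 0.00721), the largest change of the 40 genes. Ipo9, an importin that carries proteasomes into the nucleus, was lower (206 ± 24.9 against 121 ± 25.4 CPM, log2 fold change -0.76 ± 0.16, adjusted p = 0.00976).

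Nfe2l1, the factor that raises subunit genes when proteasome activity drops, had 453 ± 39.9 against 361 ± 59 CPM and did not pass (log2 fold change -0.33 ± 0.14, adjusted p = 0.0831), but passed with the replicate block (adjusted p = 0.0403) or without miR-21-KD tumour 2 (adjusted p = 0.0455). The enzymes that activate its protein, the glycanase Ngly1 (23.6 ± 5.00 against 35 ± 5.88 CPM, log2 fold change 0.57 ± 0.17, adjusted p = 0.0315) and the protease Ddi2 (8.35 ± 0.995 against 12 ± 1.99 CPM, log2 fold change 0.53 ± 0.17, adjusted p = 0.037), were both higher. Ngly1 did not pass without VC tumour 1, 2 or 3 or miR-21-KD tumour 1, 3 or 4 (adjusted p between 0.0562 and 0.0901), nor Ddi2 without VC tumour 2, 3 or 4 or miR-21-KD tumour 1, 2 or 3 (adjusted p between 0.0553 and 0.105) or any filter (adjusted p = 0.0645). Nfe2l2, the related antioxidant factor, was lower (213 ± 6.62 against 178 ± 7.89 CPM, log2 fold change -0.26 ± 0.07, adjusted p = 0.0223), but not without VC tumour 1, 2 or 3 or miR-21-KD tumour 1, 3 or 4 (adjusted p between 0.0503 and 0.0657).

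Markers of dividing cells and of some host cells differed between the groups. The 5 proliferation genes Mki67, Top2a, Ccnb1, Mcm2 and Mcm5 were all lower at the threshold, and their sum was 1456.5, 1504.5, 1553.5 and 1107 CPM in VC tumours 1 to 4, against 409, 1142, 528 and 443 CPM in the miR-21-KD group. As for the proteasome sums, miR-21-KD tumour 1 was the lowest of its group and tumour 2 the highest. The proliferation sum of tumour 2 was above that of VC tumour 4. Of the 7 leukocyte markers 6 were higher (summed CPM 1581 to 3176 in VC and 2506 to 5349.5 in miR-21-KD tumours), of the 5 fibroblast markers 3 (1598 to 3721 and 5515.5 to 11487.5) and of the 3 adipocyte markers 3 (77.8 to 284.6 and 364 to 945). Lyz2, Pdgfrb and Pdgfra did not pass, and Pdgfra was below 0 (log2 fold change -0.36). Of the 6 markers of the carcinoma epithelium, all of them detected, Epcam, Krt19, Cdh1 and Krt14 were higher and Krt18 was lower, with a sum of 1285 to 2211 CPM in VC tumours, against 881 to 1868 CPM in the other group. The 3 endothelial markers did not pass (309 to 550 and 456 to 653 CPM), and the 3 skeletal muscle markers had too few counts to be tested (0.1 to 0.8 and 0.6 to 2.7 CPM). Within the miR-21-KD group, tumour 1 had the highest leukocyte and fibroblast sums and tumour 2 the lowest. The sum of the carcinoma epithelium was lowest in tumour 1 and highest in tumour 3. That of the adipocyte markers was lowest in tumour 2 and highest in tumour 4, and the endothelial one was lowest in tumour 4 and highest in tumour 1. The part of dividing, host and carcinoma cells in the proteasome levels was not tested.

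**Figure D4:**
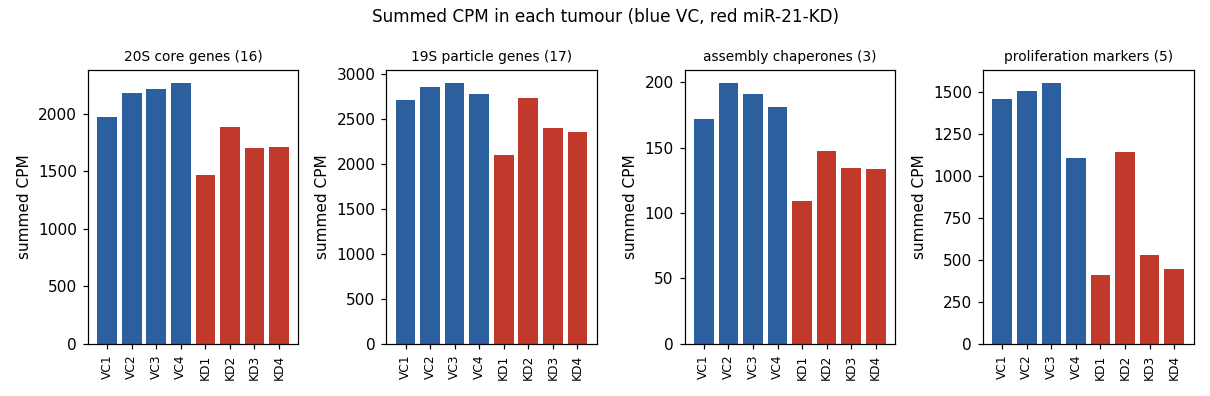
Summed CPM (y axis, bars from 0) of the 20S core genes, the 19S particle genes, the base assembly chaperones and the 5 proliferation markers in each tumour (x axis, blue VC 1 to 4, red miR-21-KD 1 to 4). In all 4 panels miR-21-KD tumour 1 is the lowest bar and tumour 2 the highest of the red bars.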

How the data were processed

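Total RNA of 8 whole tumours was sequenced, and the authors deposited unnormalized counts per gene, with Entrez identifiers. The submitters' processing notes name Subread, featureCounts, edgeR, limma and the build mm10, and the annotation, the strand setting and the treatment of reads with several matches are not given in the sources used here. Symbols came from the GRCm38.p6 annotation (25275 of 27179 identifiers), and gene positions and transcript lengths from GENCODE for the same build. Groups came from the sample titles.

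The filterByExpr function (at least 10 counts per library and 15 in all, by group) retained 14382 genes and removed 12797. Libraries were scaled by TMM (factors 0.968 to 1.018) and compared with the robust quasi-likelihood test of edgeR 4.0.16 in R 4.3.3, with no minimum fold change. Standard errors came from the estimate and its F statistic. Ratios within a library used counts with 0.5 added. The procedure was tested on simulated data. Alternatives were library size or upper-quartile scaling, no filter, at least 10 counts in every tumour, DESeq2 1.42.0, limma-voom (3.58.1), a replicate block and leaving out each tumour.

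Tumours carry the numbers 1 to 4 in either group. Deviations from the group means correlated by 0.272, 0.421, 0.175 and 0.376 between tumours of the same number. Every value was over 0.1, and the mean between tumours of different numbers was -0.105. What the numbers stand for is not given in the labels, so a block by number was run as an alternative only. The methods text read here names no pairing and refers to supplementary methods that were not used here, so the reported values use no block.

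The members, the lists of related and marker genes and the rule for named genes were chosen with earlier results of these data known. The rule names every member with its means, change and call. It gives all 8 values for Psmb5, Psmb6, Psmb7, Psmd14, Psmd4 and the 12 members past the threshold with the smallest adjusted p. Of the related genes it names Psmb8, Psmb9, Psmb10, Psme1, Psme2, Pomp, Nfe2l1 and all past the threshold. Paaf1 was not analysed here, and the result of 1 related gene is not reported here.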

Additional observations from a re-analysis of the deposited data

Results flagged for a closer look

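Within each group, the levels of the tested members, Psmc3ip included, those of the related genes named in the report and the 3 immunoproteasome ratios were searched for 1 tumour far from the other 3. Of 112 groups searched 4 had such a tumour, and chance gives about 1 in 20. In the VC group, tumour 1 was low for Psmd2, with 300.3 CPM against 322.9 to 325.3 CPM in the others, and for Psmd3, with 142.8 CPM against 170 to 173.6 CPM. Psmd2 encodes a scaffold subunit of the base and Psmd3 a subunit of the lid, and neither passed the threshold between groups. In the miR-21-KD group, tumour 2 was high for Psmd1, with 264.7 CPM against 202.6 to 210.8 CPM, and tumour 1 was low for Psmd10, with 32.58 CPM against 39.52 to 40.48 CPM.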

How the results depend on the processing

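The 35 tested proteasome genes were lower at the threshold in 15 cases as reported and in 11 to 19 under the other scalings, filters and tools and the replicate block. With each tumour left out in turn the count ranged from 7 to 23, and the count of higher ones stayed at 0. Lower related genes ranged from 3 to 11 and higher ones from 2 to 5, with all tested genes between 1487 and 3550 lower and 1449 and 3290 higher. With 1 tumour left out, the difference in log2 ratio ranged from 0.56 to 0.93 for Psmb10 to Psmb7. It ranged from 0.29 to 0.61 for Psmb9 to Psmb6 and from -0.04 to 0.12 for Psmb8 to Psmb5. None passed, and the lowest adjusted p of the exact permutation test was 0.0857. With 3 tumours against 4, this two-sided test cannot reach the threshold even for a fully separated ratio. Over the 36 tested members, Psmc3ip included, and all alternatives, 471 values kept their side of the threshold, 49 lost the call and 19 gained it. For related genes these were 552, 35 and 13. No called value changed sign, but 11 values of 4 proteasome genes and 14 values of 7 related genes near 0 did, all without a call. Upper-quartile scaling moved the median log2 fold change of all genes from -0.01 to 0.03. With the replicate number as a block, 19 proteasome genes were lower, of which 14 were among the 15, and 22.1% of all genes were. The block changed no call of the 3 ratios, although the exact paired permutation test over 4 pairs cannot give a p below 0.125. The cause of the single changes was not tested.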

Other observations

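Tested genes within 1000000 bases of each proteasome gene were examined after the values of the members had been seen. Of all tested genes 19.5% were lower and 19.6% higher at the threshold of the quasi-likelihood test of edgeR. On chromosome 2, around Psmb7, 3 of 9 were lower and 0 were higher, with a median log2 fold change of -0.27, and around Psmd5 9 of 18 were lower and 4 higher, with a median of -0.30. The other 3 members on that chromosome had medians of -0.08 (Psmc3, 3 of 29 lower and 7 higher), 0.11 (Psma7, 2 of 21 lower and 3 higher) and 0.59 (Psmd14, 0 of 6 lower and 2 higher). Of the other genes with large falls, Psma6 had 6 of 14 neighbours lower and 1 higher, Psmc2 had 4 of 15 and 1, Psmd12 had 4 of 16 and 2, Psma3 had 3 of 11 and 3, and Psma5 had 6 of 32 and 9. These counts are descriptions, and no copy number was measured.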
